A study of Mus musculus with 2 samples.

Results

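10 genes of the major histocompatibility complex (MHC) antigen presentation system were followed through the cell types of the E12.5 mouse fetal liver. They were chosen by symbol and all 10 were among the 27998 genes measured: B2m, H2-K1, H2-D1, Tap1 and Nlrc5 for class I, and Cd74, H2-Aa, H2-Ab1, H2-Eb1 and Ciita for class II. The cells came from the whole liver of 1 wild-type C57BL/6 embryo (C57BL/6J in the study's methods), which was dissociated with enzymes, sorted to remove debris, dead cells and doublets, and encapsulated in 2 runs on the 10x Genomics Chromium, so their spread holds no difference between animals. The sample labels call the 2 libraries technical replicates of 1 suspension, whereas the design text of the series speaks of 2 suspensions. The liver was untreated and there was no second stage, genotype or adult sample. All values are therefore levels in 1 fetal liver, and no test between conditions or animals could be made. Levels are given as unique molecular identifiers (UMIs) of a gene per 1000000 UMIs of all genes (CPM), summed over the cells of a type, with exact Poisson 95% intervals that cover counting error only. In such sums, fewer expressing cells and less RNA per cell cannot be told apart unless the cells are counted as well.

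Class I molecules present peptides from inside the cell to CD8 T cells. Each is a heavy chain, such as the products of H2-K1 and H2-D1, bound to the shared light chain encoded by B2m; Tap1 encodes a subunit of the transporter that brings peptides into the endoplasmic reticulum, and Nlrc5 is the transactivator of class I genes. Class II molecules present peptides taken up from outside to CD4 T cells and are typical of dendritic cells, B cells and macrophages. H2-Aa and H2-Ab1 encode the alpha and beta chains of I-A, H2-Eb1 encodes the beta chain of I-E, whose alpha chain gene is defective in C57BL/6 mice, Cd74 encodes the invariant chain that chaperones them, and Ciita is their transactivator. Class I is carried by most nucleated cells.

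On the GRCm38 assembly, the class I heavy chain and I-A and I-E genes lie on chromosome 17, H2-K1 at chr17:33996017-34000347 on the minus strand, H2-D1 at chr17:35262730-35267499 on the plus strand, H2-Ab1 at chr17:34257689-34269419 (plus), H2-Aa at chr17:34282744-34287823 (minus), H2-Eb1 at chr17:34305867-34316674 (plus) and Tap1 at chr17:34187553-34197225 (plus). B2m lies at chr2:122147686-122153083 (plus), Nlrc5 at chr8:94434356-94527272 (plus) and Ciita at chr16:10480059-10528418 (plus). Promoters of MHC genes are known for a conserved module with an X box, which holds a cyclic AMP response element, and an inverted CCAAT box (Y box), to which class I genes add a kappa B site and an interferon response element. The 250 bases before the RefSeq start (GRCm38.p6) of the light chain, both class I heavy chains and the I-A alpha chain are shown because the class I levels and the balance of the heavy chains turn on these genes, with H2-Aa as the class II counterpart. Capitals mark the CCAAT box (read ATTGG on the other strand), the response element core TGACG (read CGTCA), the interferon response motif (GAAA, any 2 bases and GAAA again) and the kappa B motif GGGATTCCC. B2m is read on the plus strand of chr2:122147437-122147686, H2-K1 on the minus strand of chr17:34000348-34000597, H2-D1 on the plus strand of chr17:35262844-35263093 and H2-Aa on the minus strand of chr17:34287824-34288073.
B2m: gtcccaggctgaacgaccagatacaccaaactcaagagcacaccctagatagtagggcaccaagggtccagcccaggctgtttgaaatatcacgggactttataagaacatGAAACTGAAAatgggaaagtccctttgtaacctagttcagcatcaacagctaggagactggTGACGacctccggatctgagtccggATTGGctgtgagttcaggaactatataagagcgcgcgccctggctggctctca
H2-K1: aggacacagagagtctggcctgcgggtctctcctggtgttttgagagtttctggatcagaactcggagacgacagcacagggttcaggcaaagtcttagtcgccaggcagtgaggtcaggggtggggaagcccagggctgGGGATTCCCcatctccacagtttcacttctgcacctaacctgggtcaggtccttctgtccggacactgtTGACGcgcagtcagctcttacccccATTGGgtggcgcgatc
H2-D1: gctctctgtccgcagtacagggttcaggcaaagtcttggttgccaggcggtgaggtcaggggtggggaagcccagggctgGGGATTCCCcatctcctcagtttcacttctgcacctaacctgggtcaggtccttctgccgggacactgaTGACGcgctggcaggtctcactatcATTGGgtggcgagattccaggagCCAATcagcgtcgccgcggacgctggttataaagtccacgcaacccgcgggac
H2-Aa: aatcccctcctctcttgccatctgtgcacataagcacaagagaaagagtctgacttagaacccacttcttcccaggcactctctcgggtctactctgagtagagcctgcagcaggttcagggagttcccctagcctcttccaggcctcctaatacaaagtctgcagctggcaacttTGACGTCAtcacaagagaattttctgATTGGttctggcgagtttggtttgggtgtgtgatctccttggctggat

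All 4 printed promoters held the inverted CCAAT box and, upstream of it, TGACG. Promoters of H2-Eb1 and Tap1 were searched too and did not share this order. That of H2-Eb1 held CCAAT on both strands and no TGACG. In Tap1, CCAAT was found only uninverted, from -222 to -218, upstream of TGACG from -86 to -82. In H2-Aa, TGACG was found on both strands in overlapping letters. GGGATTCCC was found in H2-K1 and H2-D1 and not in these letters in B2m. The interferon response motif was found in B2m and not in these letters in H2-K1 and H2-D1. Other spellings of either element were not searched for. Searched on both strands of 32851 promoters of 250 bases, CCAAT was in 33.85%, TGACG in 17.77%, the interferon response motif in 2.977% and GGGATTCCC in 0.3014%. These are letter matches and not bound sites. The H2-D1 window lies inside the annotated gene, and the bases after it match no transcript start in GENCODE. For H2-K1, RefSeq lists another start close by, whose window holds the same motifs and a further, uninverted CCAAT from -6 to -2.

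The 10537 cells (5480 in library 1 and 5057 in library 2, with 31 barcodes found in both) carried the study's own names for 9 cell types. There were 421 hematopoietic stem and progenitor cells (HSPCs), 1750 erythroid progenitors (Ery), 7432 definitive erythroblasts (Eryb), 288 primitive erythroblasts (EryP), 135 megakaryocytes (Mk), 287 granulocytic cells (G), 114 monocytes and Kupffer cells (Mo/KC), 46 endothelial cells (ECs) and 64 hepatoblasts (Hepa). Library 2 held more UMIs, 62738015 against 51969226, with a median of 9774 against 6261 UMIs per cell. The lowest UMI number of a kept cell differed too, 4387 in library 2 and 504 in library 1. In HSPCs and Hepa the medians were higher in library 1, at 16053 against 14956 and 22391 against 21910. In the other types they were higher in library 2. Defining markers were found where the names place them, with Alb at 10557 CPM in Hepa, Cldn5 at 834 in ECs, Pf4 at 10783 in Mk, Mpo at 4255 in G, Csf1r at 340 in Mo/KC and Hbb-y at 466791 in EryP. Mo/KC also held Mpo at 605 CPM and Cd34 at 292 CPM. The T cell marker Cd3e was at 0 UMIs in all 9 types, and the dendritic cell marker Itgax did not exceed 1.22 CPM in any. Other genes listed as markers of dendritic, T, NK and B cells were read, however. Over all cells of each library, Nkg7 stood at 10.4 and 8.30 CPM, Cd3g at 1.56 and 0.654, Flt3 at 5.54 and 3.87, and Cd79b at 7.31 and 7.11.

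B2m, the light chain, was found in every cell type, and its level differed widely between the highest and lowest types. It was highest in Mo/KC, at 1656 CPM (95% interval 1561 to 1756) in library 1 and 1222 (1150 to 1297) in library 2. G cells followed with 1059 and 831 CPM. HSPCs stood at 803 (773 to 834) and 708 (679 to 738) CPM. Every HSPC held at least 1 B2m UMI, 421 of 421 cells. The liver's own structural cells lay below these, ECs at 630 and 476 CPM and Hepa at 598 and 362 CPM. Mk had 287 and 202 CPM. The erythroid types came last, with Ery at 188 and 165, Eryb at 55.7 and 29.9, and EryP at 18.8 (11.1 to 29.7) and 9.32 (4.26 to 17.7) CPM. In this order the counting intervals of neighbouring types were apart in both libraries, except that ECs and Hepa overlapped in library 1. Library 1 gave the higher value in every type.

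**Figure D1:**
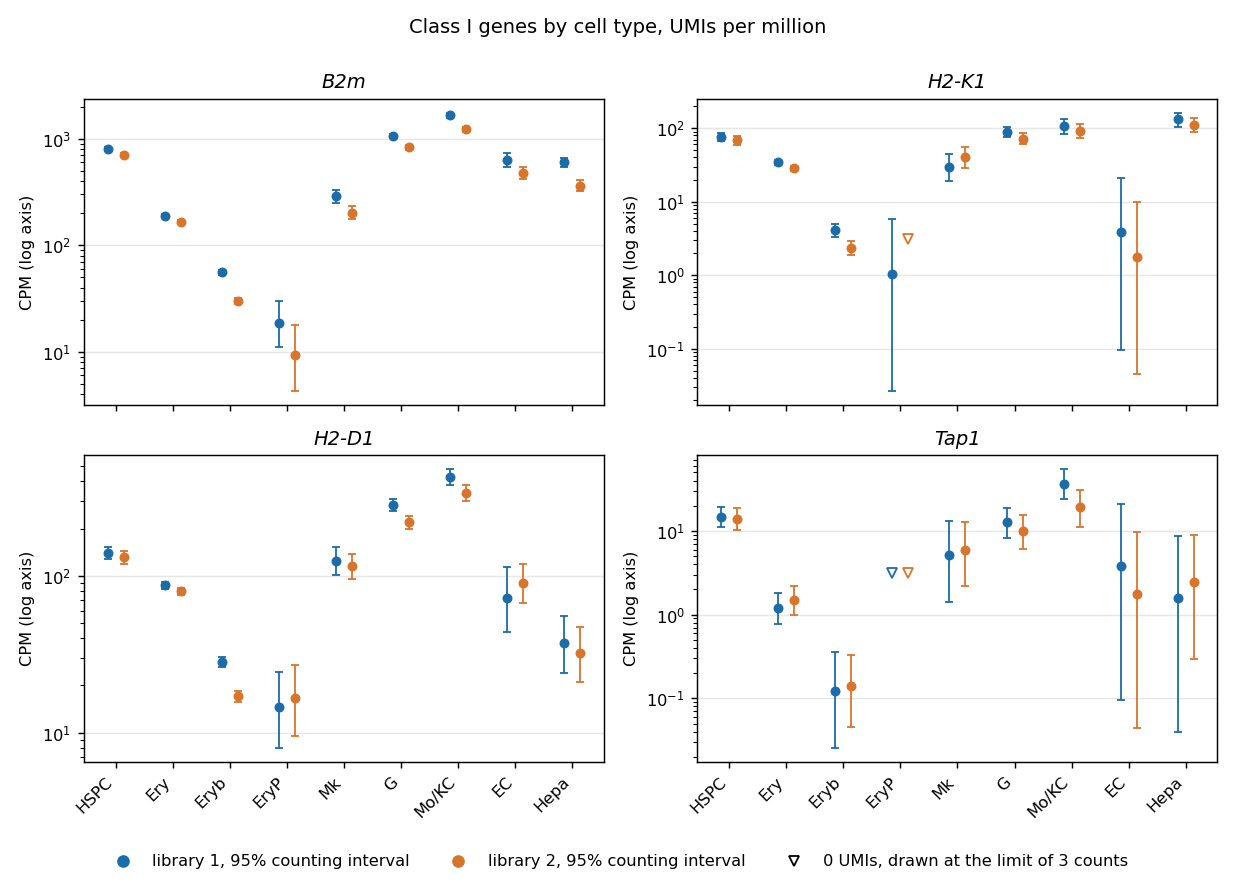
Levels of B2m, H2-K1, H2-D1 and Tap1 (CPM, log axis) in the 9 cell types, each library on its own with its 95% counting interval, and 0 UMIs as an open triangle at the limit that 3 counts would give. B2m runs from Mo/KC down to EryP, whereas H2-K1 is highest in Hepa and at 1 UMI per library in ECs.

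The heavy chain gene H2-D1 had the same top of the order as B2m. It stood at 424 and 338 CPM in Mo/KC, 283 and 219 in G, 139 and 131 in HSPCs, and 125 and 115 in Mk. The types differed beyond counting error between Mo/KC and G and between G and HSPCs, whereas HSPCs and Mk, Mk and ECs (72.5 and 90 CPM), and ECs and Ery (87.1 and 79.8 CPM) overlapped. Averaged over cells in place of summed, H2-D1 in Mk reached 228 CPM, above HSPCs, against 119 CPM summed, so the place of Mk in this order depended on how its shallow cells were weighted. Hepa held 37.5 and 32.1 CPM. Eryb (28.3 and 17.1 CPM) and EryP (14.6 and 16.6 CPM) were lowest, and their intervals overlapped in library 2.

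H2-K1, the other heavy chain, had a different order. Hepa were first with 131 (105 to 162) and 111 (89.4 to 137) CPM, and Mo/KC (106 and 92.6), G (89.9 and 72.3) and HSPCs (75.1 and 68.5) overlapped with their neighbours in turn. Mk (29.9 and 40.4) and Ery (34.4 and 28.4) formed a lower pair. In ECs the gene was almost absent, with 1 UMI in each library, 3.82 (0.0966 to 21.3) and 1.76 (0.0447 to 9.83) CPM. EryP held 1 UMI in library 1 and none in library 2, where 0 UMIs allow up to 3.11 CPM.

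The balance of the 2 heavy chains therefore differed between cell types, and as a share within the same cells it does not depend on the total UMIs or the globin load. H2-K1 made 77.8% (Clopper-Pearson 95% interval 68.8 to 85.2) and 77.6% (68.9 to 84.8) of the H2-K1 and H2-D1 UMIs in Hepa. In HSPCs the share was 35.0% (31.6 to 38.6) and 34.3% (30.6 to 38.2). Hepa thus stood alone above the other types, with intervals far from theirs in both libraries. G (24.1% and 24.8%), Mo/KC (20% and 21.5%) and Mk (19.3% and 25.9%) lay together, and ECs were at 5.0% and 1.92% on 20 and 52 UMIs in all.

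**Figure D2:**
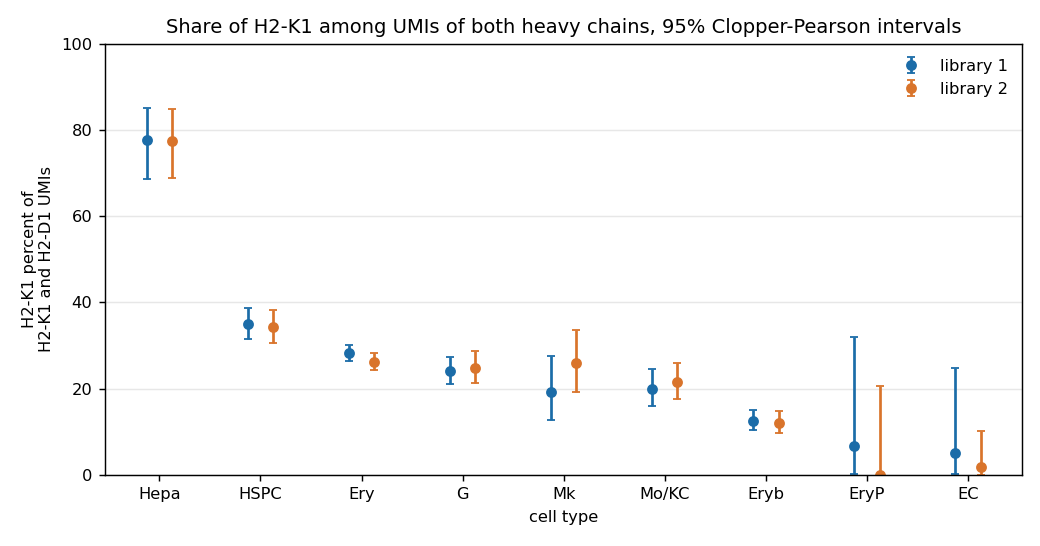
H2-K1 as a percent of all H2-K1 and H2-D1 UMIs (linear axis from 0 to 100) in each cell type, per library, with 95% Clopper-Pearson intervals. Both libraries place Hepa at 77.8% and 77.6% and HSPCs at 35.0% and 34.3%, with ECs and EryP resting on few UMIs.

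The 2 genes have similar sequences, so stretches shared with other genes were looked for. In the last 500 bases of the transcripts, which 3′ libraries mainly read, none of 23 windows of 60 bases of H2-K1 was found in another gene. For H2-D1, 2 of 23 windows (8.70%) were, in 5 genes outside the MHC, and no window was shared by H2-K1 and H2-D1. Windows of the other 8 genes were all their own. The windows came from the longest coding transcript of each gene, and only exact matches were counted. Stretches that differ by a single base would be missed. B2m, Tap1, H2-Eb1 and Ciita overlap a gene on the opposite strand (Patl2, Psmb9, Gm20513 and Dexi), and Nlrc5 overlaps the long non-coding RNA gene 9330175E14Rik.

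Tap1 was low wherever it was found. It had 36.8 and 19.2 CPM in Mo/KC, 14.8 and 14.1 in HSPCs, and 12.7 and 10.0 in G. Mk (5.19 and 5.92), ECs (3.82 and 1.76), Hepa (1.56 and 2.47) and Ery (1.21 and 1.5) were lower, and the UMIs in ECs and Hepa numbered 2 and 3 in all. Eryb held 8 Tap1 UMIs in 7432 cells, and EryP held none in 288 cells, so up to 1.04% of them could hold a Tap1 UMI, a limit on detection and not on expression. The class I transactivator Nlrc5 gave 1 UMI among all 10537 cells, in a Hepa cell of library 2, and was not detectable at this depth in the other types.

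To see how far each type lay from the HSPCs, ratios were set beside those of all genes, counting a gene as higher or lower where it differed at least 2-fold in both libraries, with counts under 3 taken as 3. HSPCs are the base of all these ratios. In Mo/KC, H2-D1 was the only MHC gene counted as higher, 3.05-fold (2.63 to 3.54) and 2.58-fold (2.22 to 3.0) above HSPCs, where 9.56% of 7719 genes were higher and 8.07% lower. B2m was 2.06-fold and 1.73-fold above HSPCs, H2-K1 1.41-fold and 1.35-fold, Tap1 2.49-fold and 1.36-fold, and none of these passed in both libraries. In G cells no class I gene passed, the nearest being H2-D1 at 2.03-fold and 1.67-fold, where 6.22% of genes were higher. Only Cd74 counted as lower there, where 5.88% of 7495 genes were.

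In Mk, B2m was 2.80-fold and 3.5-fold below HSPCs, and with Tap1 (2.85-fold and 2.38-fold) and Cd74 it made up 3 of 5 MHC genes counted as lower, where 7.88% of 7859 genes were. H2-D1 was 1.12-fold and 1.13-fold below, with intervals that include no difference. In ECs, H2-K1 was the 1 MHC gene counted as lower, 19.7-fold (3.5 to 780) and 38.8-fold (6.89 to 1540), where 6.17% of 8150 genes were. Tap1, at 1 UMI in each library of ECs, was 3.87-fold (0.665 to 156) and 7.98-fold (1.36 to 322) below HSPCs and did not pass with its counts taken as 3. Cd74, at 0 UMIs in ECs against 67 and 79 in HSPCs, did not pass for the same reason. Over both libraries its interval reached 0.203 of the HSPC level. B2m in ECs was 1.28-fold and 1.49-fold below HSPCs. In Hepa, H2-D1 was 3.71-fold (2.47 to 5.85) and 4.08-fold (2.74 to 6.32) below HSPCs, and Tap1 and Cd74 were lower too, where 16.4% of 8043 genes were. Hepa H2-K1 was 1.75-fold and 1.62-fold above HSPCs and did not pass, where 13.1% of genes were higher. Set against each other, ECs had 34.4-fold and 63.0-fold less H2-K1 than Hepa, where 7.29% of 8147 genes were lower, and 1.93-fold and 2.80-fold more H2-D1, which did not pass, where 19.9% were higher.

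The erythroid lineage held the low end of B2m, whereas ECs had less H2-K1 and Hepa less H2-D1 than Ery. Its 6 subclusters, Ery 1 and Ery 2 for the progenitors and Ery 3 to Ery 6 for the erythroblasts, showed a stepwise series. B2m stood at 226 and 202 CPM in Ery 1, 148 and 125 in Ery 2, 96.2 and 70.0 in Ery 3, 51.3 and 30.9 in Ery 4, 26.0 and 8.36 in Ery 5, and 22.5 and 8.38 in Ery 6. The level was lower at every step up to Ery 5 in both libraries, with intervals apart, and Ery 5 and Ery 6 overlapped. H2-D1 went from 102 and 93.9 CPM in Ery 1 to 14.6 and 5.65 in Ery 6. H2-K1 went from 47.4 and 39.3 CPM to 1.93 and 0.606, that is from 468 and 365 UMIs to 11 and 6. The clusters were made from all genes, so these differences describe them and are not tests.

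**Figure D3:**
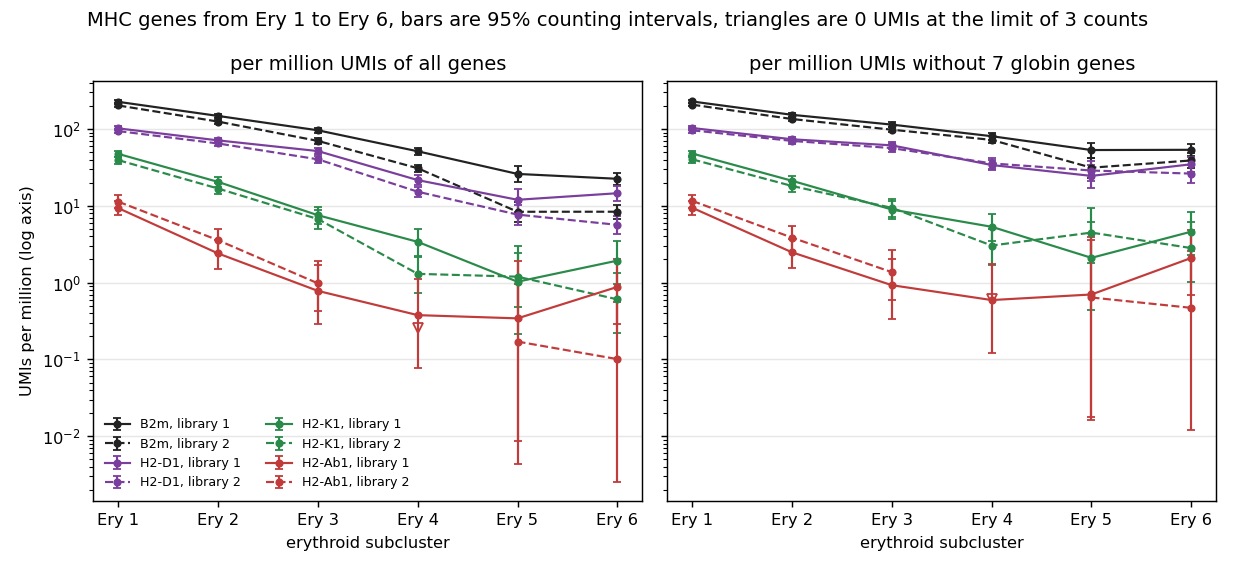
B2m, H2-D1, H2-K1 and H2-Ab1 in the subclusters Ery 1 to Ery 6 (CPM, log axis), solid lines for library 1 and dashed for library 2, with 95% counting intervals and open triangles for 0 UMIs at the limit of 3 counts. The left panel divides by all UMIs and the right panel leaves 7 globin genes out of the total, where the B2m difference between Ery 1 and Ery 6 shrinks from 15.9-fold to 4.67-fold.

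Globin transcripts filled much of the later cells, 1.07% and 2.37% of the UMIs in Ery 1 but 58.1% and 78.5% in Ery 6, which lowers the CPM of every other gene. Between Ery 1 and Ery 6, B2m was 10.0-fold (8.40 to 12.1) and 24.2-fold (19.4 to 30.5) lower, H2-K1 24.5-fold and 64.9-fold, H2-D1 6.99-fold and 16.6-fold, and H2-Ab1 10.6-fold and 112-fold (1 UMI). All 4 counted as lower, but so did 77.8% of 6550 genes, whose median was 8.68-fold lower over both libraries. With 7 globin genes left out of the totals, the median gene was 2.56-fold lower and 54.7% of genes counted as lower. B2m was then 4.26-fold (3.56 to 5.13) and 5.32-fold (4.27 to 6.72) lower, H2-K1 10.4-fold (5.76 to 21.0) and 14.3-fold (6.51 to 39.2), and H2-D1 2.96-fold (2.37 to 3.75) and 3.66-fold (2.79 to 4.89). The median gene was 2.60-fold and 2.53-fold lower in the 2 libraries. The intervals of B2m and H2-K1 lay above these values, and that of H2-D1 included the median in library 1.

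The heavy chain balance moved along the same series without any such correction. H2-K1 made 31.8% (29.4 to 34.2) and 29.5% (27.0 to 32.1) of both heavy chains in Ery 1, 22.4% and 20.6% in Ery 2, 12.7% and 14.3% in Ery 3, and 11.7% (5.99 to 20) and 9.68% (3.63 to 19.9) in Ery 6. The intervals of Ery 1, Ery 2 and Ery 3 were apart from each other in both libraries. From Ery 3 on they overlapped, on as few as 38 UMIs in Ery 5 of library 1.

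Against HSPCs, Ery 1 cells already had 3.56-fold and 3.5-fold less B2m, 6.95-fold and 5.68-fold less Tap1 and 32.0-fold and 29.3-fold less Cd74, where 14.1% of 7404 genes were lower, whereas H2-D1 was 1.37-fold and 1.39-fold and H2-K1 1.58-fold and 1.74-fold lower and did not pass. Over all Eryb, B2m was 14.4-fold and 23.7-fold below HSPCs, where 57.3% of 7342 genes were lower. With the globin genes left out it was 9.27-fold and 9.95-fold, beside a median gene at 1.53-fold and 37.5% of genes lower. In EryP, the yolk sac derived cells, B2m was 42.7-fold (27.0 to 72.2) and 75.9-fold (39.9 to 166) below HSPCs, where 87.1% of 7173 genes were lower. Globins made 76.7% and 82.5% of EryP UMIs, and without them B2m was 10.1-fold and 13.7-fold lower and H2-D1 2.26-fold and 1.42-fold, where 22% of genes were lower and H2-D1 no longer passed. H2-D1 in EryP rested on 30 UMIs in 26 cells, and stood at 3.45 in place of 15.6 CPM when only cells with at least 1000 genes and under 10% mitochondrial UMIs were kept.

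Shares of cells were also compared at 1 number of total UMIs, of which globins took a larger part in the later cells. When each cell was thinned to 3600 UMIs, 93.1% and 91.3% of HSPCs held a B2m UMI, 55.3% and 51.1% of Ery 1 cells, and 7.22% and 2.97% of Ery 6 cells. Without thinning, the shares were 100% in HSPCs, 98.9% and 96.7% in Ery 1 (median depths of 26146 and 25977 UMIs) and 9.28% and 6.55% in Ery 6 (4378 and 7882.5 UMIs). Barcodes of 1 to 50 UMIs, too few for cells, were measured beside these shares as a gauge of free RNA. In library 2 they had B2m at 159 CPM, H2-K1 at 23 and H2-D1 at 58.2. Ery 6 cells of library 2 stood at 5.26% of that level for B2m, 2.64% for H2-K1 and 9.72% for H2-D1, and Ery 5 cells at 5.26%, 5.21% and 13.2%. Ery 1 cells of library 2 stood above it, at 127%, 171% and 161%. In library 1, where such barcodes held more of these genes, Ery 1 cells stood below their level, at 38.1% for B2m, 36.4% for H2-K1 and 34.7% for H2-D1. Ery 6 cells of library 1 were at 3.79%, 1.48% and 4.96%. A free RNA share of 10% was assumed for erythroid cells, without a measurement. In Ery 6 of library 2 it would give 158 B2m, 22.7 H2-K1 and 57.6 H2-D1 UMIs, and 83, 6 and 56 were found. In Ery 5 of library 2 it would give 93.2, 13.4 and 34.1, and 49, 7 and 45 were found. In EryP of library 2 it would give 15.4, 2.22 and 5.62, and 9, 0 and 16 were found. In Ery 5 and Ery 6 of library 2 the 10% thus gave more B2m UMIs than were found. It lies above the share that B2m allows there at this profile, so the H2-D1 UMIs it gave in them are no estimate. The part of free RNA in the class I UMIs of Ery 5, Ery 6 and EryP was not tested. For the non-erythroid types of library 2, the largest free RNA share that the adult globin gene Hbb-bs allows was between 5.06% in ECs and 12.6% in Mk, and B2m, H2-K1 and H2-D1 exceeded what it would give in all 6, except for the 1 H2-K1 UMI of ECs.

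Class II genes were near or at 0 in most cells. UMIs numbered 146 in HSPCs and 68 in Mo/KC for Cd74, 17 in all for H2-Aa and 12 in all for H2-Eb1. Ciita gave 2 UMIs, both in Mk, 1 in each library. Cd74 stood at 56.0 (39.6 to 76.9) and 33.9 (22.9 to 48.4) CPM in Mo/KC and at 19.4 (15.1 to 24.7) and 25.3 (20 to 31.5) CPM in HSPCs. Neither ECs nor Hepa held a Cd74 UMI, which allows up to 3.62 and 2.07 CPM over both libraries. Ery had 0.525 and 0.5 CPM, and G, Mk and EryP had 2, 1 and 1 UMIs. Eryb differed between the libraries, with 29 UMIs in library 1 and 3 in library 2.

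**Figure D4:**
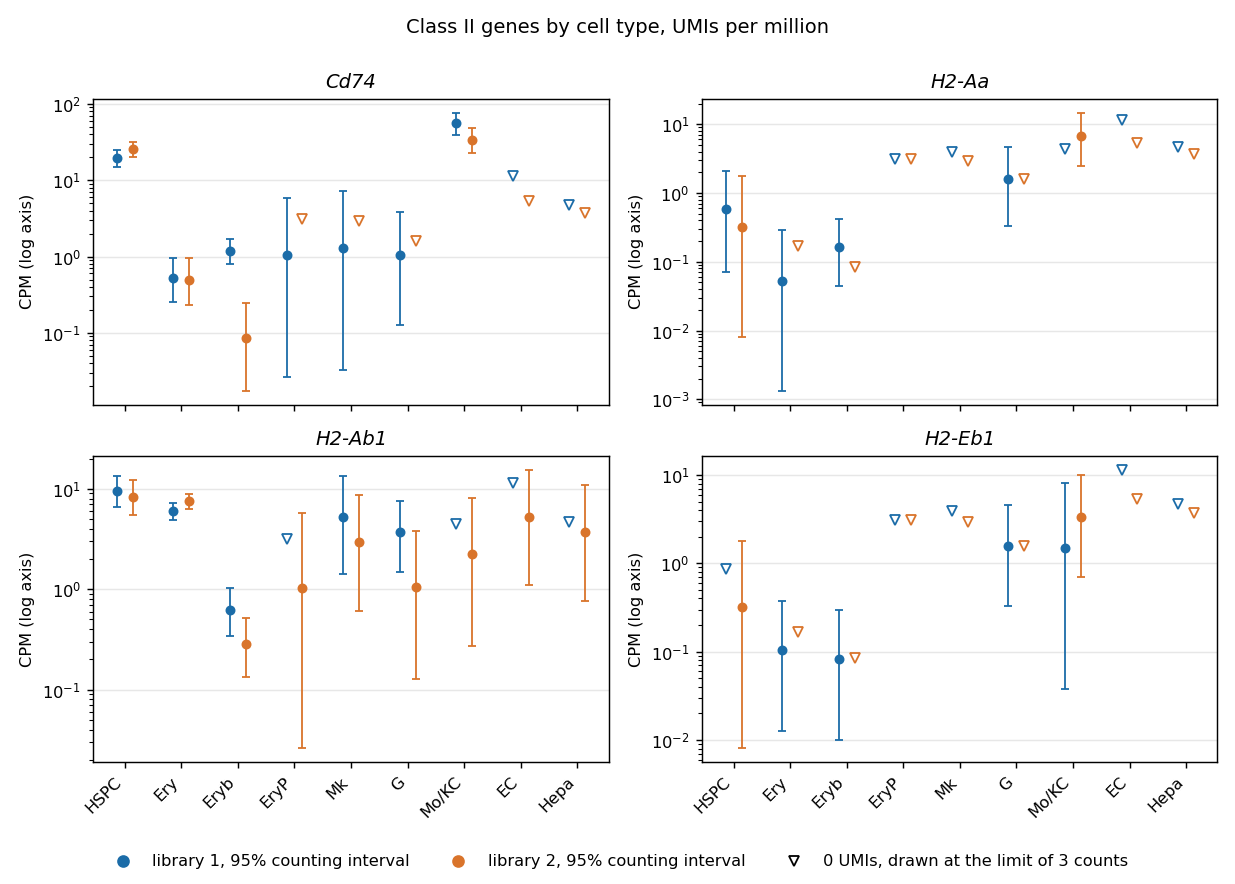
Levels of Cd74, H2-Aa, H2-Ab1 and H2-Eb1 (CPM, log axis) in the 9 cell types, per library with 95% counting intervals, and 0 UMIs as an open triangle at the limit of 3 counts. Cd74 stands out in HSPCs and Mo/KC, and H2-Aa and H2-Eb1 are at or near the limit throughout. H2-Ab1 is highest in HSPCs and Ery over both libraries, and the interval of Ery overlaps that of Mk in each.

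Cd74 was held by few cells. In HSPCs, 33 of 421 cells had a Cd74 UMI, and 14 cells with at least 3 UMIs (7 in each library) held 124 of the 146 UMIs, 84.9%, up to 18 in a cell. In Mo/KC, 19 of 114 cells had a Cd74 UMI and 5 cells with at least 3 held 51 of 68 UMIs, 75%. Because these cells were picked by their Cd74, the values that follow are descriptions. The 14 HSPCs had H2-D1 at 288 CPM (222 to 368) against 128 (119 to 137) in the 388 HSPCs without Cd74, B2m at 976 against 745, and H2-K1 at 103 (65.6 to 155) against 71.1. Among markers of other cells, Ccr7, a chemokine receptor of migrating dendritic and T cells, was at 63.0 CPM (34.4 to 106) against 6.45, Flt3, a receptor of lymphoid and dendritic progenitors, at 148 (102 to 208) against 68.6, and Siglech, of plasmacytoid dendritic cells, at 22.5 (7.30 to 52.5) against 5.29. Cd34 was at 292 against 383 CPM and Kit at 36.0 against 50.6, while Pax5 and Xcr1 were at 0 UMIs in the 14 cells. Whether these cells are another type within the HSPC group was not tested.

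The 5 Mo/KC cells rich in Cd74 had Csf1r, the receptor of the macrophage growth factor, at 296 CPM against 342 in the 95 cells without Cd74. C1qa, a complement gene of resident macrophages, was at 82.1 (26.7 to 192) CPM in these 5 cells and 78.9 (46.8 to 125) in the 14 cells with 1 or 2 Cd74 UMIs, against 495 (457 to 535) in the 95. In 1 Mo/KC cell of library 2, 6 H2-Aa and 3 H2-Eb1 UMIs lay together. They were all of the H2-Aa in this type and all but 1 of its H2-Eb1.

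H2-Ab1, the I-A beta chain, did not follow the other class II genes. It stood at 9.57 (6.59 to 13.4) and 8.32 (5.44 to 12.2) CPM in HSPCs, and in the erythroid progenitors of Ery 1 it stood at 9.32 (7.51 to 11.4) and 11.3 (9.25 to 13.7) CPM, 1.15 times the HSPC level over both libraries (0.853 to 1.56). From there it went to 2.40 and 3.56 CPM in Ery 2 and 0.780 and 0.977 in Ery 3, and Ery 4 to Ery 6 held 3, 2 and 6 UMIs. Mo/KC, where the partner chain and Cd74 were found, held 0 and 2 H2-Ab1 UMIs. Mk, ECs, G and Hepa held 7, 3, 9 and 3 H2-Ab1 UMIs, which gave 3.92, 3.62, 2.38 and 2.07 CPM over both libraries. The H2-Ab1 intervals of Ery and Mk overlapped in each library.

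In Ery 1, 17.6% and 22% of cells held an H2-Ab1 UMI, 3.47% and 4.73% when thinned to 3600 UMIs. In Ery 6 the shares were 0.411% and 0.0850% at depths of 4378 and 7882.5 UMIs, and 0.265% and 0.0108% thinned. Of the 145 Ery 1 cells with H2-Ab1, 143 had no other class II UMI, and so had 44 of 44 in Ery 2 and 49 of 54 in HSPCs. The H2-Ab1 of these cells was therefore found without a UMI of its alpha chain or the invariant chain at this depth. In library 2, H2-Ab1 in Ery 1 stood at 369% of its level in barcodes of 1 to 50 UMIs, 3.06 CPM. In library 1 such barcodes held H2-Ab1 at 124 CPM, together with 671 Cd74, 319 H2-Aa and 177 H2-Eb1 UMIs beside 244 of H2-Ab1. Ery 1 cells of library 1 had 6 Cd74, 0 H2-Aa and 2 H2-Eb1 UMIs beside 92 of H2-Ab1. The assumed free RNA share of 10% would give 336 Cd74 and 122 H2-Ab1 UMIs in these cells. With 6 Cd74 UMIs found, 10% is more than Cd74 allows there at this profile, so the 122 are no estimate. In Ery 1 of library 2 the 10% would give 2.84 H2-Ab1 UMIs, and 105 were found. The part of free RNA in the H2-Ab1 UMIs of Ery 1 was not tested.

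Only 18 of 10537 cells held UMIs of at least 2 of the 4 class II genes Cd74, H2-Aa, H2-Ab1 and H2-Eb1. They were 5 HSPCs (1.19%), 3 Mo/KC (2.63%, 0.546 to 7.50), 3 Ery, 5 Eryb, 1 Mk and 1 G. None was an EryP, an EC or a Hepa cell, where 0 of 288, 0 of 46 and 0 of 64 cells allow up to 1.04%, 6.52% and 4.69% of cells with such UMIs, again a limit on detection. Library 1 held 14 of the 18 and library 2 held 4, and all 8 erythroid cells among them came from library 1. The class II UMIs of erythroblasts moved with library 1, whose barcodes of few UMIs were rich in class II transcripts, and the part of that RNA in these cells was not tested.

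**Figure D5:**
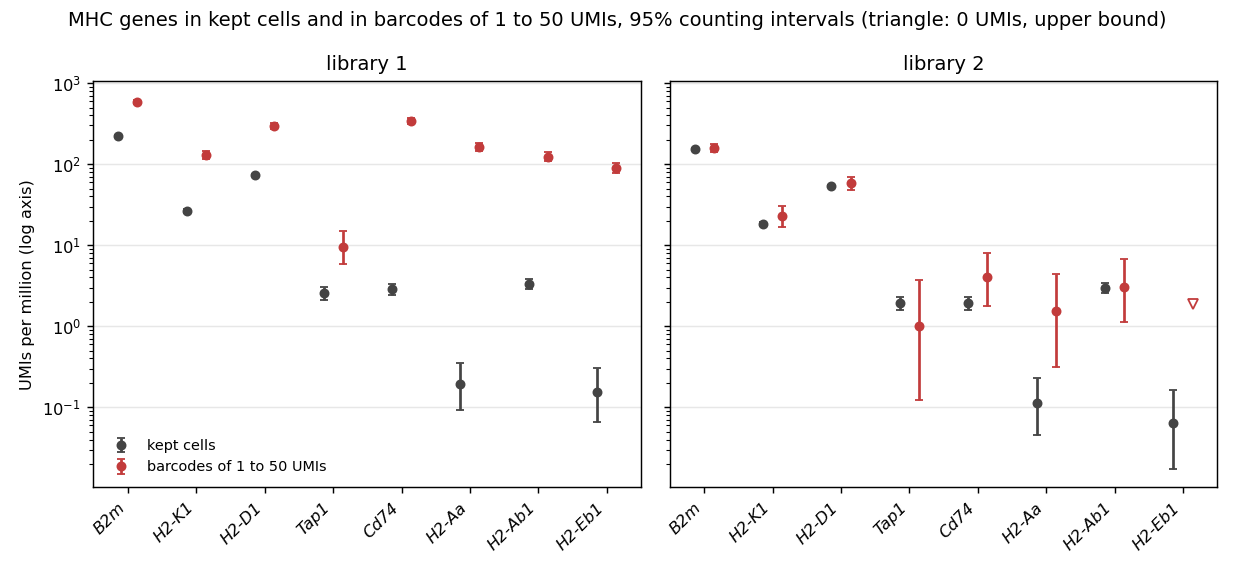
Levels of 8 MHC genes (CPM, log axis) in the cells of the deposited table and in barcodes of 1 to 50 UMIs, per library with 95% counting intervals. In library 1 all 8 genes are higher in the barcodes of few UMIs than in cells, Cd74 at 340 against 2.85 CPM, whereas in library 2 Cd74 is at 4.08 against 1.93 CPM.

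At the largest share that Hbb-bs allows, the profile of these barcodes in library 1 gave more H2-Aa and H2-Eb1 UMIs than were found in each of the 6 non-erythroid types. In HSPCs of library 1 a share of 7.59% would give 42.3 H2-Aa, 23.5 H2-Eb1 and 89.0 Cd74 UMIs, and 2, 0 and 67 were found. In Hepa 8.69% would give 18.9 Cd74 UMIs, and 0 were found. In Mo/KC of library 1 a share of 5.33% would give 12.3 Cd74 UMIs, and 38 (26.9 to 52.2) were found. B2m of library 1 exceeded what the largest share would give in each of these types. H2-K1 did so except in ECs, and H2-D1 except in ECs and Hepa. This profile varied with the UMI number of the barcodes, Cd74 at 437 CPM in those of 11 to 50 UMIs and 2847 in those of 51 to 100. The part of free RNA in the levels of library 1 was not tested. In library 2 the largest share would give 0.845 Cd74 UMIs against 79 found in HSPCs and 0.330 against 30 in Mo/KC, so Cd74 in both types stood above that level.

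The rest of the pathway was taken from 8 gene lists with 92 measured genes. Of 8 genes of class I peptide loading, all 8 were at 10 CPM or more in both libraries in HSPCs, Mo/KC and G, where 23.8%, 22.6% and 22.5% of all genes were. Their median in Mo/KC was 58.2 CPM. Only 4 reached it in ECs and 3 in Hepa, of 22.8% and 20.9% of all genes. This was not particular to them, since 4 reached it in each of Mk, Ery, Eryb and EryP, where 22.8%, 21.3%, 13.2% and 6.60% of all genes did. In Mk, Tap1, Tap2, Tapbpl and Erap1 were counted as lower than in HSPCs, where 7.88% of all genes were. Tap2, the partner of Tap1, had 29.6 and 31.0 CPM in HSPCs against 7.63 and 5.29 in ECs and 0 and 3.70 in Hepa. Tapbp, which bridges the transporter and the heavy chain, had 46.4 and 42.2 CPM in HSPCs, 11.4 and 14.1 in ECs and 17.2 and 6.17 in Hepa. In Hepa, Tap1, Tap2, Tapbp and Tapbpl were all counted as lower than in HSPCs, where 16.4% of all genes were, and the general chaperones Calr (999.6 and 831 CPM in Hepa), Canx and Pdia3 were not.

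The immunoproteasome, whose subunits replace the standard ones to cut peptides for class I, showed a like division. Psmb8 had 252 and 266 CPM in HSPCs and 317 and 264 in Mo/KC, but 15.3 and 8.82 in ECs, 1.56 and 0 in Hepa and 16.4 and 17.6 in Ery 1. Psmb9 followed with 82.3 and 68.2 CPM in HSPCs, 7.63 and 0 in ECs and 1.56 and 0 in Hepa. The standard subunit Psmb6 was at 441 and 445 CPM in HSPCs, 500 and 625 in ECs and 569 and 533 in Hepa. Of 8 genes of this list, 4 were lower in ECs than in HSPCs (Psmb8, Psmb9, Psmb10 and Psme1) and 2 in Hepa (Psmb8 and Psmb9), where 6.17% and 16.4% of all genes were, and none was higher or lower in Mo/KC. In Mk the same 4 as in ECs were lower, where 7.88% of all genes were. In Ery 6, all 7 genes of this list that reached 10 CPM were lower than in Ery 1, as were 77.8% of all genes.

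Among 17 other class I heavy chain genes, few were read. Hepa held H2-Q10, a secreted class I molecule of the liver, at 511 and 367 CPM, against at most 2.11 in any other type. H2-Q7 (122 and 55.6 CPM) and H2-Q6 (18.7 and 12.3 CPM) were found in Hepa too and nowhere else above 1.30 CPM. The Q genes are near-identical copies, and the split between H2-Q6 and H2-Q7 is therefore uncertain. Fcgrt, the neonatal Fc receptor that binds B2m, had 153 and 166 CPM in ECs, 146 and 67.8 in Mo/KC and 26.6 and 24.7 in Hepa. Hfe, an iron regulator that also binds B2m, had 53.0 and 53.1 CPM in Mo/KC. H2-T22 stood between 13.6 and 35.9 CPM in Hepa, Mo/KC, ECs and HSPCs.

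The class II loading machinery was read most in Mo/KC. Of 12 measured genes, 8 reached 10 CPM, and 7 of these were counted as higher in Mo/KC than in HSPCs and none as lower, beside 9.56% and 8.07% of all genes. Ctss, the protease that trims the invariant chain, had 693 and 385 CPM in Mo/KC against 18.6 and 20.8 in HSPCs. Lgmn, an asparaginyl endopeptidase, had 675 and 413 against 19.7 and 27.5, and Ifi30, a lysosomal thiol reductase, 455 and 433 against 11.6 and 10.2. H2-DMa, a chain of the peptide editor H2-M, had 82.5 and 92.6 CPM in Mo/KC and 39.1 and 29.1 in HSPCs. H2-DMb2 had 32.4 and 15.8 against 6.09 and 2.24, and so entered the count above only through its Mo/KC level. The proteases and the reductase also serve general lysosomal breakdown, and Lgmn was also higher in Ery 6 (42.5 and 19.3 CPM) than in Ery 1 (2.53 and 0.969), where 5.40% of genes were.

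The factors upstream were present in part. The NF-Y subunits that bind the CCAAT box were read in all 9 types, Nfyb at 50.2 and 38.1 CPM in HSPCs and 54.6 and 26.0 in Ery 6, and Nfya at 37.4 and 38.1 in HSPCs and 4.57 and 2.73 in Ery 6. Of the 11 enhanceosome genes, 7 reached 10 CPM in the comparisons of Mo/KC, G and ECs with HSPCs and 8 in that of Mk, and none of these was higher or lower. In Hepa, 1 of 7 was lower (Nfya), where 16.4% of all genes were, and in EryP 6 of 7, where 87.1% were. Of 16 genes of interferon and NF-kB input, 15 reached 10 CPM and 5 were higher in Mo/KC, where 9.56% of all genes were, among them Ifngr1, Ifngr2, Ifnar2 and Irf8, with the interferon gamma receptor chain Ifngr1 at 293 and 268 CPM against 105 and 90.9 in HSPCs and 2.46 and 1.31 in Ery 6. Jak1, the kinase that signals from interferon receptors, was highest in ECs at 214 and 228 CPM. Of 15 interferon response genes, 10 reached 10 CPM in Mo/KC or HSPCs, whereas 4 reached it in HSPCs in both libraries. Those counted as higher in Mo/KC were Irf7, Gbp3, Oas1a and Ifitm3, beside the same 9.56%. Only Ifitm3 entered by its HSPC level. The others entered through Mo/KC alone, where they are high, so their number is no support. Irf7 had 63.4 and 21.5 against 7.83 and 7.68 CPM in HSPCs, and Ifitm3 765 and 848 against 197 and 209. The co-stimulatory ligand Cd86 had 75.1 and 70.0 CPM in Mo/KC and 8.99 and 4.80 in HSPCs, while Cd80 gave at most 1.76 CPM in any type.

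Over 13 groups (HSPC, Ery 1 to Ery 6, EryP, Mk, G, Mo/KC, EC and Hepa), the genes whose log2(CPM + 1) was most like that of B2m among 9305 genes were Pbxip1 (Pearson r of 0.98 in the library with the lower value), Map2k1 (0.98), Cnpy3 (0.98), Dscr3 (0.97) and Npc2 (0.97). H2-D1 came at place 604 (0.90), Tap1 at 1137 (0.87) and H2-K1 at 1633 (0.84). The genes most like Cd74 were Wfdc17 (0.94), Mndal (0.94), Hpgds (0.92), Ifi203 (0.92) and Camk1d (0.92), while B2m was at 0.41 with it. The groups share 2 libraries, and 6 of them are steps of 1 lineage with a common globin load, so the values describe likeness only.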

How the data were processed

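The deposited matrices hold raw UMI counts per gene and cell barcode of 2 technical replicate libraries, made by the authors from mm10 with bcl2fastq 2 and Cell Ranger 2.1.1 per the labels (the matrix header of library 1 reads 3.0.0). Cells, cell types and subclusters were taken from the authors' metadata table, made with Seurat 3.2.0. They were not clustered again, and the authors' sort removed doublets before encapsulation.

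Counts of each gene were summed per type and library and divided by all UMIs (CPM). Intervals were exact Poisson for levels, Clopper-Pearson for shares and conditional binomial for ratios, at 95%. A count of 0 was read as up to 3 counts. Genes at 10 CPM or more in either group entered a comparison, and a 2-fold difference in both libraries was counted, with counts under 3 taken as 3. Thinning to 3600 UMIs was computed as the expected share, leaving out shallower cells. The 7 globin genes were left out of totals as an alternative. Free RNA was gauged from barcodes of 1 to 50 UMIs. For non-erythroid cells, its share was the largest that their Hbb-bs allows. For erythroid cells no share could be set in this way, and 10% was assumed without a measurement. With 1 liver there was no test. The methods were checked on simulated counts. Tables and intervals came from scipy 1.17.1, pandas 2.3.3 and numpy 2.4.6, and figures from matplotlib 3.10.9, in Python 3.11.15.

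The 10 genes and the 8 lists were chosen with earlier results of these data known. H2-Ke6 was taken out of a list after its values were seen, since it encodes a steroid dehydrogenase. The rule for named list genes was the 3 highest in Mo/KC of each list and those at least 3-fold above their next type; the other list genes named, and the comparison of cells rich in Cd74, were chosen after values were seen. H2-T10, H2-K2, H2-Ea-ps and Trac had no row of that symbol. Gene positions are from GENCODE and promoters from RefSeq, matched by symbol. Alternatives left out 1 library, filtered cells, averaged over cells and changed the thinning. Values of some genes of the marker and pathway lists are not reported here.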

Additional observations from a re-analysis of the deposited data

Results flagged for a closer look

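In library 1, 8 of the MHC genes were higher in barcodes of 1 to 50 UMIs, which the comparisons of cell types do not use, than in the cells of the same library. Cd74 stood at 340 CPM in these barcodes against 2.85 in cells, H2-Aa at 162 against 0.192, H2-Ab1 at 124 against 3.33 and H2-Eb1 at 89.7 against 0.154. The class I genes were higher as well, B2m at 593 against 224, H2-K1 at 130 against 26.3, H2-D1 at 294 against 73.2 and Tap1 at 9.62 against 2.54 CPM. In the barcodes of 1 to 50 UMIs of library 2, Cd74 was at 4.08, H2-Aa at 1.53, H2-Ab1 at 3.06 and B2m at 159 CPM, and H2-Eb1 had 0 UMIs. Within library 1, Cd74 was highest in barcodes of 51 to 100 UMIs, at 2847 CPM. Among genes chosen after their values were seen, the B cell gene Cd79a was at 29.4 against 0.115 CPM and the T cell gene Cd3e at 6.58 CPM against 0 UMIs in cells. Xist was at 63.8 against 0.366 CPM in cells of library 1, and at 0 UMIs in the barcodes of library 2. The source of this RNA was not tested.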

How the results depend on the processing

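Of 624 values recomputed under other settings, 570 were counted as the same and 54 as moved. A value was the same within the counting interval or 1 SD of the 2 libraries, and the number of class II cells within a fixed fold. Values with 1 library left out could hardly move, because that SD came from the same 2 libraries and the main value lies between them. A change of direction was looked for only in ratios whose interval lay above 1, and 0 were found. The H2-D1 ratio of HSPC to Mk, whose interval included 1, was outside this check. A mean over cells placed Mk above HSPCs for that gene. Totals without 7 globin genes gave B2m at 80.9 CPM in Eryb (40.4 with them) and 46.7 in Ery 6 (13.5), and ratios of Ery 1 to Ery 6 of 4.67 for B2m (15.9) and 3.24 for H2-D1 (11), and of HSPC to Eryb of 9.58 for B2m (18.8). A mean over cells gave H2-Ab1 in Ery 1 as 12.0 CPM (10.3). Without thinning, B2m was found in 100% of HSPCs, 97.8% of Ery 1 and 7.94% of Ery 6 cells, H2-Ab1 in 19.8% of Ery 1 and H2-D1 in 92.1% of Mo/KC, and at 7200 UMIs B2m in 99.2% and 75.9% of HSPCs and Ery 1, H2-Ab1 in 7.38% and H2-D1 in 87.9%. The 18 cells with at least 2 class II genes were 4 to 14 with either library left out (4 without library 1), 6 when 3 of 4 genes were asked for, and 4.4 expected after thinning. Barcodes of 1 to 100 UMIs in library 1 held B2m at 1006 and Cd74 at 702 CPM. The filters on cells moved none of the main results. The heavy chain shares under the same filters were added after seeing the data. No paired analysis was possible because the 2 libraries form 1 group and nothing was tested. The 46 ECs and 64 Hepa cells limit what their low counts can show.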
